A study of Mus musculus with 4 samples.

Results

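The 10 genes described here carry lipids between cells: the apolipoproteins Apoe, Apoc1 and Clu, the lipid exporters Abca1 and Abcg1, the lipoprotein receptors Lrp1, Lrp8, Vldlr and Scarb1, and the phospholipid transfer protein Pltp. They were taken as every probe set whose platform annotation names exactly 1 gene, that gene being among the 10, which gave 27 of the 45037 probe sets on the array (10 of 18193 named genes). A probe set is a group of short probes for 1 transcript. Gene expression was measured in neuroepithelial cells, the dividing precursors of the forebrain's neurons and glia, from the telencephalon of ICR mouse embryos. The E14.5 group (2 arrays) held cells taken at embryonic day 14.5 and cultured for 4 days. The E11.5 group (2 arrays) held cells taken at embryonic day 11.5 and cultured for 1 day. Both groups were grown in N2-supplemented DMEM/F12 medium with 10 ng/ml basic FGF on polyornithine and fibronectin, and the labels name no transgene or drug. Embryonic age and days in culture differ together between the groups and cannot be told apart.

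Lipids leave brain cells on particles that resemble the high-density lipoprotein of blood. ABC transporters load cholesterol and phospholipid onto apolipoprotein E, which glial cells secrete, and receptors of the low-density lipoprotein receptor family take the particles up. Lrp8 and Vldlr are also the receptors for Reelin, the secreted signal that positions migrating neurons, so the family serves both lipid uptake and neuronal layering. The liver X receptors, nuclear receptors that sense oxidised cholesterol, are known to switch on Apoe, Apoc1, Abca1, Abcg1 and Pltp in several mouse tissues.

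The lipid carrier and the main exporter rose steeply at E14.5, as did 1 of the receptors, while most of the other genes differed by less than the test could separate from the spread between arrays. With each gene represented by its brightest tested probe set, Apoe, Abca1, Lrp1 and Apoc1 were higher at E14.5, Vldlr was lower, and Clu, Abcg1, Lrp8, Scarb1 and Pltp did not pass the test. That is 4 genes higher and 1 lower of 10, where 14.3% of all 12952 genes tested were higher and 13.6% lower, 27.8% in all. Counted by probe set, 26 of the 27 were bright enough to be tested; 6 were higher (1 of them, a dim probe set of Abca1, tested only because of its E14.5 signal), 1 was lower and 19 were not called, against 11.1% higher and 12.6% lower, 23.7% in all, over all 27022 probe sets tested. The calls come from limma, a linear model with variances shared across probe sets, at a Benjamini-Hochberg adjusted p of 0.05 over all 27022. The median log2 difference (E14.5 over E11.5) was 0.22 over the 26 probe sets and -0.011 over all those tested.

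**Figure D1:**
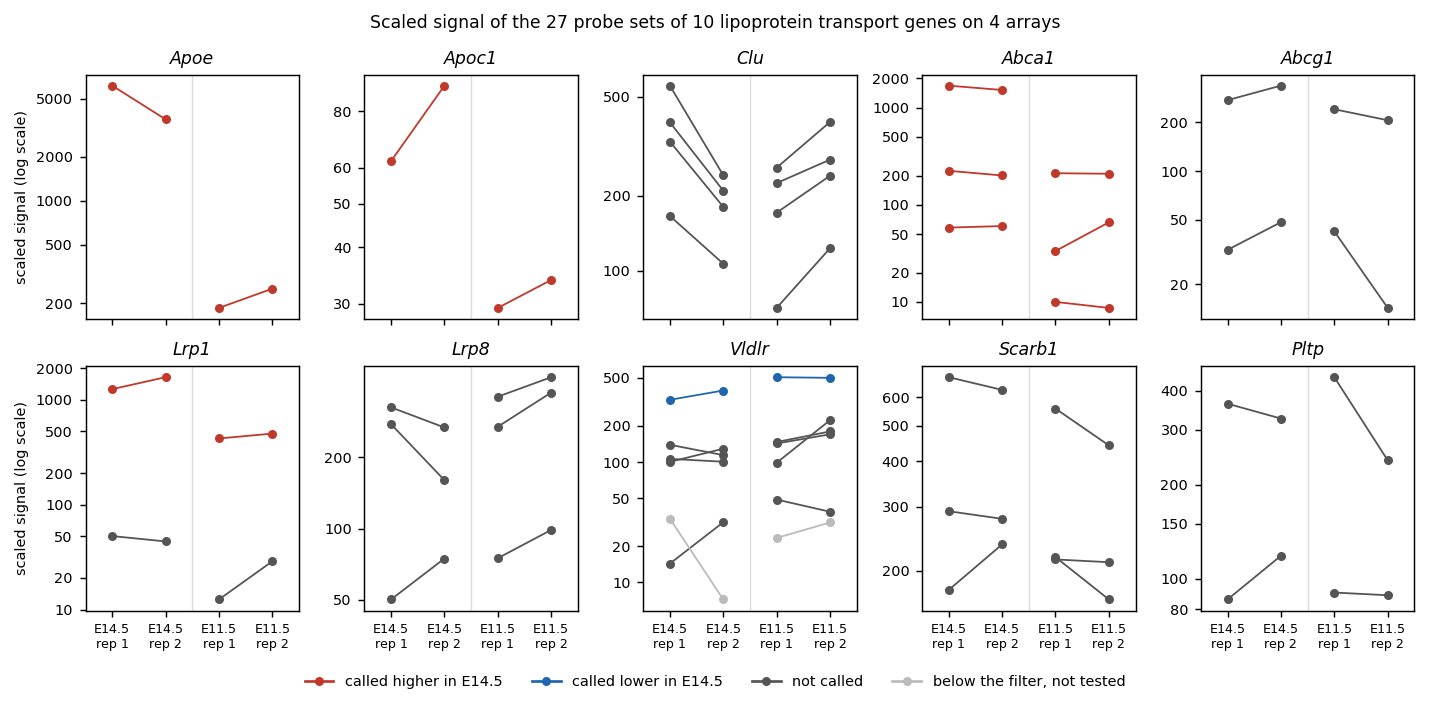
Scaled signal (y axis, log scale, arbitrary intensity units; the range differs between panels) of every probe set of each gene on the 2 E14.5 and 2 E11.5 arrays (x axis). Each pair of joined points is 1 probe set in 1 group, coloured by its call. Apoe and Abca1 have both E14.5 arrays far above both E11.5 arrays, whereas the 4 probe sets of Clu overlap between the groups.

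Signals are given after a scaling that set the trimmed means of the 4 arrays equal, so a difference is measured against an array's average. The trimmed means of the deposited arrays were 154 and 103 at E14.5 and 187 and 252 at E11.5. Across probe sets, log2 signals correlated most closely within a group (r = 0.969 at E14.5 and 0.975 at E11.5) and less closely between groups (0.885 to 0.909). All 8 neuroepithelial and radial glia markers gave signal above the filter in both groups, among them Sox2, which averaged 4143 at E14.5 and 2730 at E11.5, and Vim, which averaged 8207 at E14.5 and 6768 at E11.5. They did not move one way: Sox2, Fabp7 and Hes5 were higher at E14.5, Pax6 was lower (283 at E14.5 and 507 at E11.5), and Nes, Vim, Hes1 and Prom1 did not pass. All 7 oligodendrocyte precursor markers and 8 of 9 astrocyte markers were higher at E14.5, and all 7 neuronal markers were lower. Of all genes, 14.3% were higher and 13.6% lower. Cspg4, Gpr17, Gfap, Aqp4 and S100b were tested only because of their E14.5 signal, and Tbr1 only because of its E11.5 signal. The remaining astrocyte marker, Gja1, had a log2 difference of -0.60 and did not pass (limma adjusted p = 0.10). Gja1 passed as lower with the replicate number added to the model (limma adjusted p = 0.0051) and with unscaled values (-1.37, adjusted p = 0.025). It also did so without E14.5 replicate 1 (-0.99) and without E11.5 replicate 2 (-0.83), but in no other refit of that probe set. In these bulk samples, fewer cells of a type and less RNA per cell cannot be told apart. The labels do not say that the arrays of a group came from separate cultures or animals, so a p-value reflects the spread among the 4 arrays alone, and that spread may be technical. With 2 arrays against 2, a two-sided exact permutation test of a single probe set cannot go below p = 0.333, and the calls therefore rest on the variance that limma shares across probe sets.

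Apolipoproteins are described first. Apoe, the main lipid carrier of brain lipoproteins, had scaled signals of 6154 and 3619 on the E14.5 arrays, against 185 and 251 on the E11.5 arrays. Both E14.5 arrays lay far above both E11.5 arrays, although they also differed from each other: their log2 gap of 0.76 was larger than that of 92.2% of tested probe sets. The ratio of the group means was 22.4, and the log2 difference was 4.37 ± 0.23 (SE, n = 2 arrays in either group, here and for every later ± on a difference; limma adjusted p = 1.8e-06). Under all 15 alternative settings, including each array left out in turn, it stayed past the threshold, at 3.61 to 4.75. Apoe has 1 probe set on the array that is annotated to it alone, so no second probe set checks this value.

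Apoc1, a small exchangeable apolipoprotein that inhibits lipoprotein uptake, lies directly beside Apoe on mouse chromosome 7. Its signals were 62.1 and 91.2 at E14.5, against 29.4 and 33.9 at E11.5. The groups did not overlap, and the mean was 2.43 times as high at E14.5 (log2 difference 0.99 ± 0.30, limma adjusted p = 0.036). The call was lost without E14.5 replicate 2 (0.76, adjusted p = 0.18), without E11.5 replicate 1 (0.92, adjusted p = 0.086) and without E11.5 replicate 2 (1.07, adjusted p = 0.0505), as well as with no signal filter (adjusted p = 0.11) and with values as deposited (0.37, adjusted p = 0.52). Over all its alternatives the adjusted p ran from 0.020 to 0.52. The protein-coding genes next along the chromosome did not show the rise of Apoe. Tomm40, a pore of the mitochondrial outer membrane, had signals of 544 and 601 at E14.5 and 890 and 621 at E11.5 and did not pass (-0.37 ± 0.18). Nectin2, an adhesion molecule, had 137 and 139 at E14.5 and 134 and 140 at E11.5 (0.012 ± 0.19). Apoc4 was below the signal filter. Taking the nearest pair of protein-coding genes on each side of every member gave 36 genes, of which 20 were tested; 3 were higher (Slc44a1, Dmrtb1 and Ctsa), 2 were lower (Nxph4 and Rflna) and 15 did not pass, against 14.3% higher and 13.6% lower of all genes.

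Clu, also called apolipoprotein J, is an extracellular chaperone that binds lipids and is secreted by astrocytes. Its brightest probe set had signals of 554 and 242 at E14.5, against 259 and 396 at E11.5. The 2 E14.5 arrays enclosed the 2 E11.5 arrays, and the log2 gap of 1.16 between the E14.5 arrays was larger than that of 97.4% of tested probe sets. On each of the 4 probe sets the groups overlapped and E14.5 replicate 1 was the highest array. Differences over the 4 probe sets ran from 0.19 to 0.45 and none passed, nor did any reach an unadjusted p of 0.05. The 95% interval of the brightest reached from -0.54 to 0.92, so these arrays do not exclude a rise or a fall of a size within it. Without E14.5 replicate 2 that probe set passed as higher (0.77, adjusted p = 0.036), and without E14.5 replicate 1 its sign turned (-0.39, adjusted p = 0.29). Of these 4 probe sets, 3 end in _x_at, a suffix the manufacturer gives to probe sets whose probes may also match other transcripts.

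The exporters come next. Abca1, which loads cholesterol and phospholipid onto Apoe, rose on its 2 brighter probe sets, and the remaining one, dim at E11.5, was also called higher. The brightest had signals of 1684 and 1519 at E14.5, against 211 and 209 at E11.5. The arrays of each group nearly coincided, and the mean was 7.63 times as high at E14.5 (log2 difference 2.85 ± 0.14, limma adjusted p = 1.1e-06). The second had 224 and 200 at E14.5 and 33.5 and 66.0 at E11.5 (1.90 ± 0.27, adjusted p = 0.00078). The third had 58.2 and 60.4 at E14.5 and 10.0 and 8.68 at E11.5 (1.70 ± 0.35, adjusted p = 0.0059). The E11.5 mean of the third lies below the filter of 27.3 and below the constant of 12.8 added before log2, and it was tested only because of its E14.5 signal, so its call adds no support and no ratio is given for it. The 2 brighter differed in size, and with the log2 values of all 3 averaged the difference was 2.15. With values as deposited the third did not pass (1.23, adjusted p = 0.056).

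The RefSeq windows of 250 bases before the annotated start of 3 genes that rose are shown because liver X receptors are known to act on Abca1 at its promoter. Capitals mark matches on either strand to GGTTA followed after 5 bases of any kind by GGTCA, a direct repeat of the type that liver X receptors bind, and to the GC box GGGCGG. The first of these motifs was chosen after the windows had been seen. For Apoe the most upstream of 3 annotated starts is used.
Apoe, chr7:19699189-19699438, minus strand, GRCm38.p6: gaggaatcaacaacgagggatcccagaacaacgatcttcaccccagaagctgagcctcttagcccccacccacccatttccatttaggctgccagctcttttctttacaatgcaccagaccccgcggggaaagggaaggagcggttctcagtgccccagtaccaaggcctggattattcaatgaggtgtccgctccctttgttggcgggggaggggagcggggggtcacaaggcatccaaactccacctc
Abca1, chr4:53159896-53160145, minus strand, GRCm38.p6: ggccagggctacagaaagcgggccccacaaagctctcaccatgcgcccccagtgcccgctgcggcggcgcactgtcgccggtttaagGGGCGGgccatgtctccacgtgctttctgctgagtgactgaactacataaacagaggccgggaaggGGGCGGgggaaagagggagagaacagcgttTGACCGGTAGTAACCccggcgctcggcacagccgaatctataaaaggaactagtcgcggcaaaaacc
Lrp1, chr10:127621149-127621398, minus strand, GRCm38.p6: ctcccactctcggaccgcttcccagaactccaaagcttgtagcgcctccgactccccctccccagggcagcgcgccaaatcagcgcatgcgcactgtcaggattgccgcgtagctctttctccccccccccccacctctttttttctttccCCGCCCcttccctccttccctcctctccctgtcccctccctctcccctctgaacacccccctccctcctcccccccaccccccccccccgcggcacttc
The Abca1 window held the repeat once, beginning 67 bases before the start, and 2 GC boxes; the repeat was present in 0.0457% of all 32851 windows of this length and the GC box in 32.7%. The TATA box TATAAA, found in 12.4% of all windows, lay 29 bases before the Abca1 start. The Lrp1 window held 1 GC box and the Apoe window held neither motif. Of the 10 genes, 6 had windows, 11 in all, and the strict repeat, AGGTCA and AGGTCA with 4 bases between, was in none of them and in 0.0152% of all windows. A match is a run of letters only; binding was not measured.

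Abcg1, which passes cholesterol on to particles that already carry lipid, had signals of 275 and 337 at E14.5 on its brightest probe set, against 241 and 206 at E11.5. The groups did not overlap but lay close together, and the difference of 0.43 ± 0.18 did not pass (limma adjusted p = 0.12; 95% interval 0.029 to 0.83). Its second, dimmer probe set overlapped between groups (0.45 ± 0.41, adjusted p = 0.49). A rise of Abcg1 on the scale of that of Abca1 lies outside the interval of the brighter probe set.

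**Figure D2:**
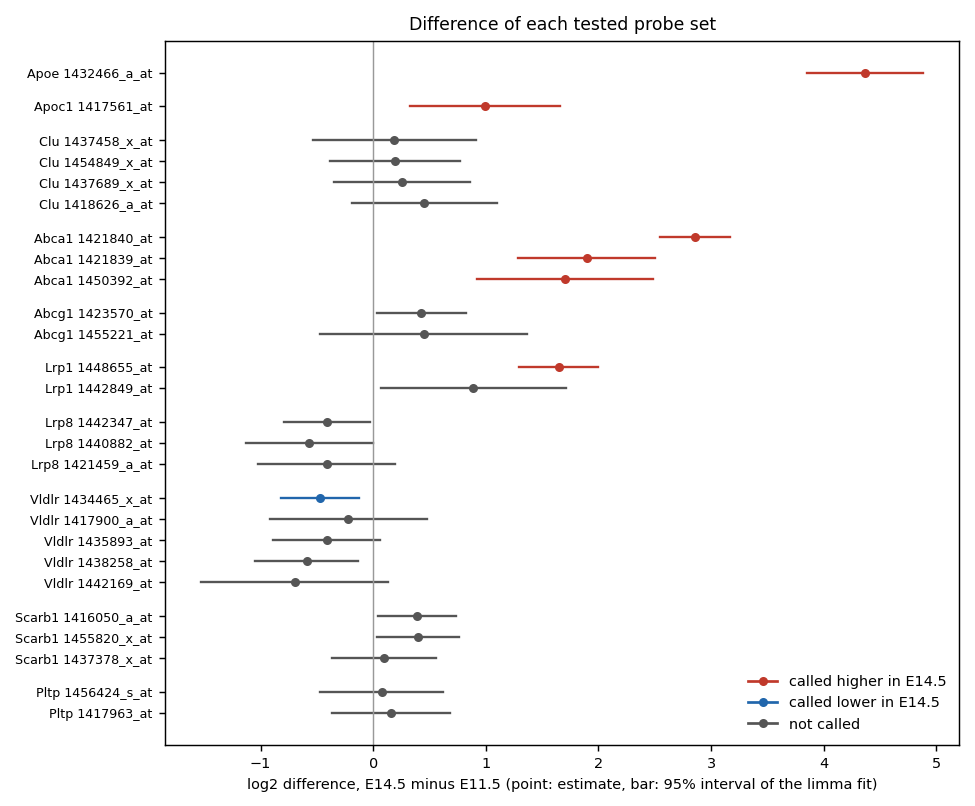
Log2 difference, E14.5 minus E11.5 (x axis), of each of the 26 tested probe sets (rows), with the 95% interval of the limma fit as a bar. The probe sets of Apoe, Abca1 and Lrp1 lie to the right of 0, all those of Lrp8 and Vldlr have estimates to the left of it, and 19 of 26 did not pass the test.

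Among the receptors, Lrp1 was the 1 gene called higher. Lrp1 is a large endocytic receptor for Apoe and many other ligands. Its brighter probe set had signals of 1261 and 1640 at E14.5, against 427 and 475 at E11.5. Both E14.5 arrays were above both E11.5 arrays, the mean was 3.21 times as high (log2 difference 1.65 ± 0.16, limma adjusted p = 6.1e-05), and each array could be left out without loss of the call (1.46 to 1.83). With values as deposited, unscaled, the difference was 0.88 and did not pass (adjusted p = 0.16). The dimmer probe set, with 50.2 and 44.6 at E14.5 and 12.5 and 28.8 at E11.5, was higher in both E14.5 arrays but did not pass (0.89 ± 0.37, adjusted p = 0.11). With the 2 averaged, the difference was 1.27.

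Vldlr, a receptor for Apoe-rich particles and for Reelin, has 6 probe sets. The brightest had signals of 329 and 393 at E14.5, against 507 and 501 at E11.5. The groups did not overlap and the E11.5 mean was 1.40 times the E14.5 mean (log2 difference -0.47 ± 0.15, limma adjusted p = 0.0499). This call stood at the edge of the threshold: it held under 6 of 15 alternatives, over which the adjusted p ran from 0.036 to 0.22. It was lost without E14.5 replicate 1 (-0.35, adjusted p = 0.22), without E11.5 replicate 1 (-0.46, adjusted p = 0.11), without E11.5 replicate 2 (-0.48, adjusted p = 0.10) and with the probe sets averaged (-0.48, adjusted p = 0.068). The called probe set ends in _x_at, so its probes may also match other transcripts. The 4 other tested probe sets, which lack that suffix, had estimates of -0.70 to -0.22 and did not pass. The next brightest, at 139 and 114 at E14.5 against 98.7 and 223 at E11.5, depended on 1 array: with E11.5 replicate 1 left out it was called lower (-0.76), and with E11.5 replicate 2 left out its sign turned (0.32). The sixth probe set, with 33.9 and 7.20 at E14.5 and 23.4 and 31.4 at E11.5, was below the filter. Fitted without a filter it had a difference of -0.39 ± 0.47.

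Lrp8, the other receptor for Reelin and also known as Apoer2, did not pass on any of its 3 probe sets. The brightest had signals of 325 and 268 at E14.5, against 361 and 436 at E11.5 (-0.41 ± 0.17, limma adjusted p = 0.12). The second had 276 and 160 at E14.5 and 270 and 376 at E11.5, so that its groups overlapped (-0.57 ± 0.25, adjusted p = 0.14). It passed as lower without E14.5 replicate 1 (-0.94) and without E11.5 replicate 1 (-0.80). The third had 50.2 and 74.8 at E14.5 and 75.0 and 98.8 at E11.5 (-0.41 ± 0.27). Of the 3, 2 reached an unadjusted p of 0.05. All 8 tested probe sets of Vldlr and Lrp8 thus had estimates below 0, of which 1 was called. The dimmest of the 8, a Vldlr probe set, was tested only because of its E11.5 signal and adds no support. Probe sets of 1 gene read the same RNA and are not replicates.

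Scarb1, the receptor that takes cholesterol esters from high-density lipoprotein without taking up the particle, was slightly higher on 2 of its 3 probe sets without passing. The brightest had signals of 680 and 628 at E14.5, against 558 and 442 at E11.5 (0.39 ± 0.16, limma adjusted p = 0.10), and it passed as higher without E11.5 replicate 1 (0.55, adjusted p = 0.029). The second had 292 and 278 at E14.5 and 215 and 211 at E11.5 (0.40 ± 0.16, adjusted p = 0.11). The third overlapped between the groups (0.095 ± 0.21). Across all 10 genes, both E14.5 arrays were above both E11.5 arrays for 10 of the 26 tested probe sets and below them for 6. Over all tested probe sets those shares were 30.1% and 31.9%. The counts of the 10 genes include dim probe sets of Abca1, Lrp1 and Vldlr that were tested only because of the group where they were higher.

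Pltp moves phospholipid between lipoprotein particles and enlarges high-density lipoprotein. Its brighter probe set had 363 and 326 at E14.5, against 442 and 239 at E11.5. The E11.5 arrays enclosed the E14.5 arrays, and the difference was 0.076 ± 0.24 (limma adjusted p = 0.87; 95% interval -0.47 to 0.62). The dimmer had 85.9 and 119 at E14.5 and 90.4 and 88.6 at E11.5 (0.15 ± 0.24). Neither reached an unadjusted p of 0.05.

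**Figure D3:**
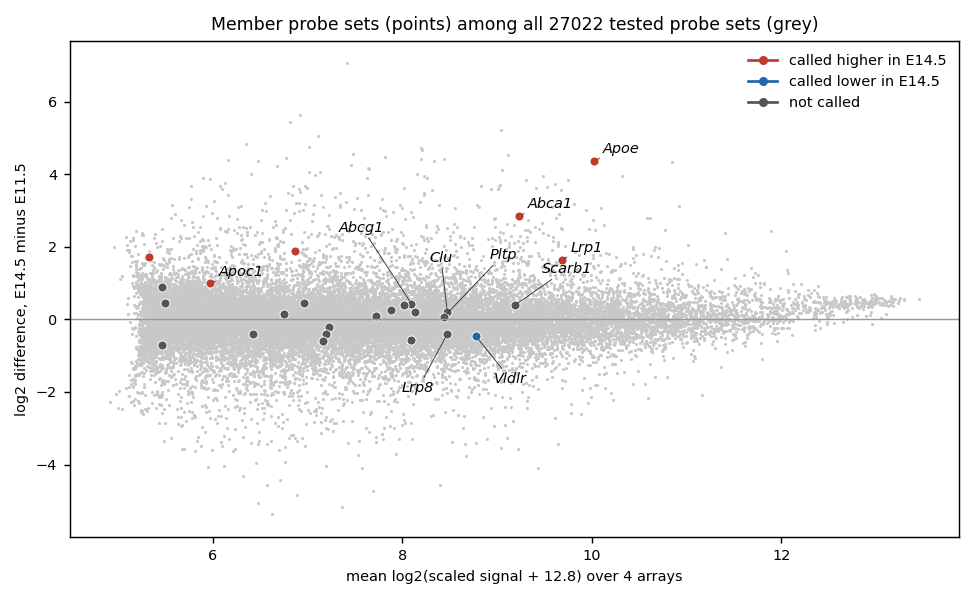
Log2 difference, E14.5 minus E11.5 (y axis), against the mean log2 signal over the 4 arrays (x axis) for all 27022 tested probe sets (grey) and the 26 of the lipoprotein transport genes (coloured by call; names stand at each gene's brightest probe set). Apoe lies at 4.37, in the sparse upper part of the plot, whereas most of the other members lie inside the dense grey cloud.

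The profile of Apoe over the 4 arrays was most like those of Bcas1, Pla2g7, Ppp1r3c and Scrg1. Likeness was measured as the root mean square of log2 differences after each gene was centred on its own mean, over 4 arrays and among 12342 genes, and it was 0.12 to 0.21 for these genes. Bcas1, a gene of maturing oligodendrocytes, had a difference of 4.42, and Pla2g7, which encodes a lipoprotein-associated phospholipase, had 4.42. For Vldlr, the 1 gene called lower, the nearest were Prkch, Mapk1ip1l, Rfx3 and Urb2 at 0.0095 to 0.024. With 4 arrays in 2 groups, such likeness mostly repeats the difference between the groups.

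Other genes of lipoprotein and sterol transport were described from 8 lists, which were chosen with earlier results of these data known. Of 67 genes tested, 19 (28.4%) were higher at E14.5 and 5 (7.46%) lower, against 14.3% and 13.6% of all genes, with a median log2 difference of 0.21 against 0.029. Only 12 were higher and 3 lower without the variance trend, and 4 and 5 with values as deposited, where the median of all probe sets itself was at -0.71 and the called rises of Lrp10, Abca3, Scarb2, Osbp, Osbpl1a and Srebf1 turned their sign.

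Of 9 tested other members of the low-density lipoprotein receptor family, 3 were lower and 1 higher, against 13.6% lower and 14.3% higher of all genes. Of the 9 estimates 5 lay below 0 and 4 above it. Sorl1, a sorting receptor that is also an Apoe receptor, had signals of 82.0 and 65.6 at E14.5, against 170 and 152 at E11.5 (-1.01 ± 0.22, limma adjusted p = 0.0075). Lrp12 had 260 and 322 at E14.5, against 516 and 580 at E11.5 (-0.89 ± 0.16). Lrp2, the receptor known as megalin, fell by 1.01 on the log2 scale, a call lost without E14.5 replicate 2 (-0.89), without E11.5 replicate 2 (-0.72), with no filter (adjusted p = 0.11) and without the variance trend (adjusted p = 0.053). The gene that was higher, Lrp10, was named after its value was seen (0.53 ± 0.17); its call was lost without E14.5 replicate 1 (0.33), without E11.5 replicate 1 (0.50), with no filter, with arrays set to a common median and without the variance trend. Sort1 (-0.18 ± 0.14) and Lrp11 (0.10 ± 0.15) did not pass.

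The largest difference in these lists was that of Reln, which encodes Reelin, the ligand shared by Vldlr and Lrp8. Its signals were 163 and 119 at E14.5, against 1344 and 1624 at E11.5 (-3.29 ± 0.18, limma adjusted p = 2.1e-06). Reln is made by Cajal-Retzius neurons in the early cortex, and the list of 7 neuronal markers that were all lower includes it. The part of neurons in the fall of Reln was not tested. Among 6 tested chaperones, degraders, adaptors and ligands of the receptors, Dab2, an endocytic adaptor of the family, was the 1 gene that was higher (1.50 ± 0.25). Of all genes, 14.3% were higher. Snx17, which recycles Lrp1 to the cell surface, had 4334 and 4130 at E14.5 and 3553 and 3218 at E11.5 and did not pass (0.32 ± 0.12, adjusted p = 0.077). Lrpap1, the chaperone that keeps ligands off the receptors during their synthesis, did not pass either (0.36 ± 0.16). Both passed as higher without E11.5 replicate 1, at 0.39 for Snx17 and 0.50 for Lrpap1.

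None of the other apolipoproteins was called. Of 14 with a probe set, 9 were below the filter, among them Apoa1, Apob and Apoc2, and limma called 0 of the 5 tested, of which 1 reached an unadjusted p of 0.05. Apoo (-0.14 ± 0.13) and Apool (0.11 ± 0.15), which are mitochondrial membrane proteins despite their names, were the brightest. Among 11 other lipid ABC transporters 2 (18.2%) were higher and none was lower, against 14.3% and 13.6% of all genes. The 2 were the peroxisomal Abcd3 (0.87 ± 0.12, limma adjusted p = 0.00064) and Abca3 (0.72 ± 0.15). Abcg4, the close relative of Abcg1, had 132 and 115 at E14.5 against 114 and 123 at E11.5 and did not pass (0.050 ± 0.20), nor did Abcg2 (0.16 ± 0.21).

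Lipases and scavenger receptors were the lists with the largest share of rises, 4 of 9 tested genes in each, with none lower. Of all genes, 14.3% were higher and 13.6% lower. Angptl4, a secreted inhibitor of lipoprotein lipase, had 417 and 337 at E14.5, against 84.7 and 70.5 at E11.5 (2.10 ± 0.20, limma adjusted p = 5.3e-05). Lpl, lipoprotein lipase itself, had 1065 and 1048 at E14.5, against 387 and 345 at E11.5 (1.50 ± 0.14). Lipa, the lysosomal lipase that frees cholesterol from its esters, rose by 1.71 ± 0.18. The fatty acid and lipoprotein receptor Cd36 had 172 and 226 at E14.5, against 21.6 and 34.2 at E11.5 (2.38 ± 0.27), and Cd68 (2.29 ± 0.22) and the scavenger receptor Msr1 (1.93 ± 0.23) were higher as well. The other risers, named after their values were seen, were Lmf1 (1.16 ± 0.19) and Scarb2 (0.46 ± 0.12), whose call was lost without E14.5 replicate 1 (0.48) and without E14.5 replicate 2 (0.44). Not called were Pon2 (-0.30 ± 0.16), Lipe (0.29 ± 0.23), Megf10 (0.27 ± 0.17) and Cxcl16 (0.062 ± 0.27).

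Inside the cell, 5 of 13 genes of sterol handling were higher and 1 lower, against 14.3% and 13.6% of all genes. Npc1, which moves cholesterol out of lysosomes, had 452 and 466 at E14.5, against 143 and 147 at E11.5 (1.58 ± 0.16, limma adjusted p = 9.0e-05), and its partner Npc2 had 5651 and 6250 at E14.5, against 3377 and 3491 at E11.5 (0.79 ± 0.12). Stard3, a sterol carrier of late endosomes, was higher by 0.82 ± 0.19, a call lost without E14.5 replicate 2 (0.53). Among those named after their values were seen, Osbp (0.44) and the 1 lower gene, Stard4 (-0.47), lost their calls without any 1 of the 4 arrays, and Osbpl1a was higher by 0.67. Osbpl9 (-0.39 ± 0.14) and Tspo (0.18 ± 0.22) did not pass. Of 5 tested liver X receptors and partners 2 were higher, neither of them a liver X receptor, against 14.3% of all genes. Srebf1, a transcription factor of lipid synthesis that liver X receptors induce, rose by 0.69 ± 0.14 (limma adjusted p = 0.0058). Its call was lost without the variance trend (adjusted p = 0.066). Ppard rose by 0.74 ± 0.24 (adjusted p = 0.049). The call of Ppard was lost without E14.5 replicate 1 (0.82), without E14.5 replicate 2 (0.66) and without E11.5 replicate 1 (0.58). Rxrb (0.21 ± 0.21) and Rxra (0.18 ± 0.23), partners of the liver X receptors, did not pass. Nr1h3, itself a liver X receptor and named after its value was seen, was dim, with a mean of 20.7 at E11.5. It did not pass (0.69 ± 0.37, limma adjusted p = 0.22). The receptor Nr1h2 had no probe set annotated to it alone.

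**Figure D4:**
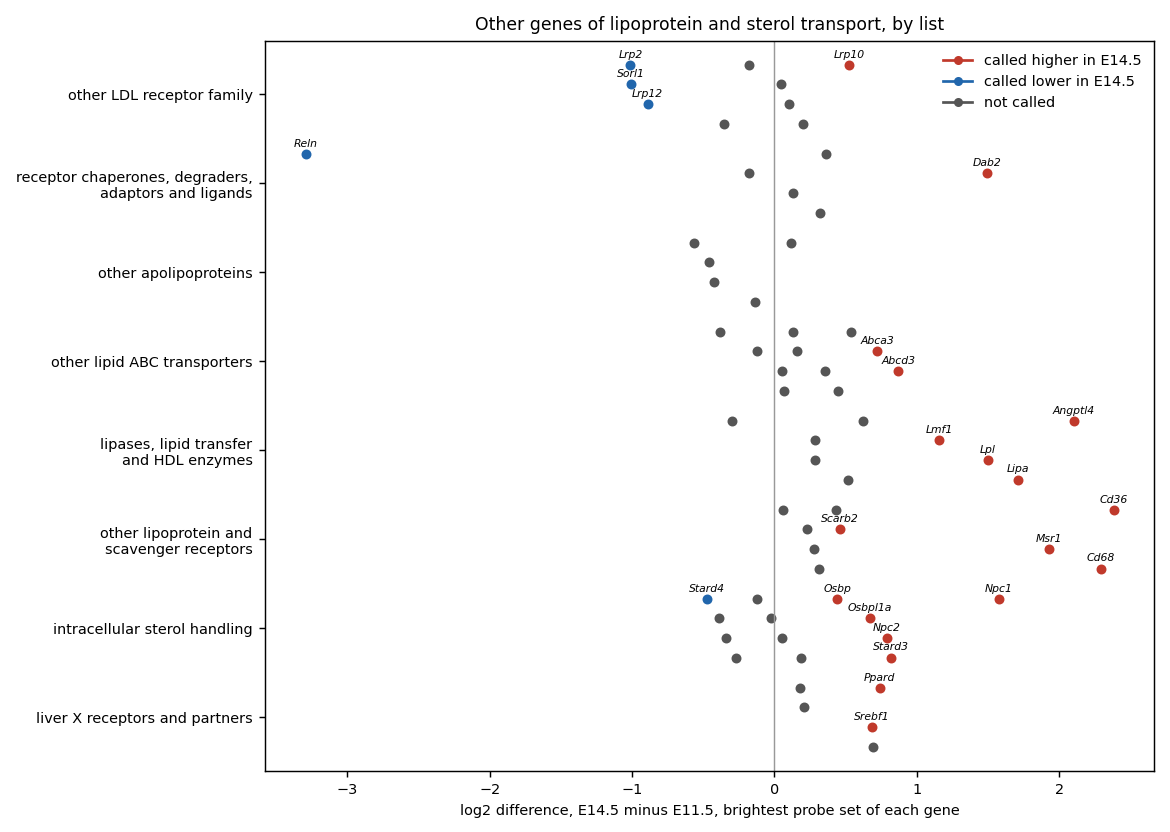
Log2 difference, E14.5 minus E11.5 (x axis), of the brightest probe set of 67 other genes of lipoprotein and sterol transport, by list (rows; the height within a row has no meaning). Called genes are named; Reln stands far to the left at -3.29, and Cd36, Cd68 and Angptl4 are farthest to the right.

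Apoe, Apoc1, Lpl, Cd36, Cd68 and Msr1 are all made by macrophages and microglia and, for some, by other glia. Of 15 microglia and macrophage markers, 12 were tested, 10 were higher at E14.5, Cd68 among them, and none was lower. Their summed scaled signal was 2329 to 2430 on the E14.5 arrays, against 358 to 512 on the E11.5 arrays, while Aif1, Itgam and P2ry12 stayed below the filter. C1qa, a complement gene of microglia, averaged 229 at E14.5 and 6.17 at E11.5. C1qa, C1qb, C1qc, Fcer1g and Ptprc were tested only because of their E14.5 signal, so their calls add no support. The summed signal of 9 astrocyte markers was 13339 to 15823 at E14.5, against 5481 to 5851 at E11.5, and that of 7 oligodendrocyte precursor markers was 18286 to 20205 at E14.5, against 682 to 902 at E11.5. The part of each cell type in the rises of Apoe, Apoc1, Abca1, Lrp1, Lpl, Cd36, Cd68 and Msr1 was not tested. Choroid plexus markers, another known source of Apoe and Clu, had 1 of 5 tested genes lower, Otx2, and none higher; their summed signal was 282 to 380 at E14.5, against 647 to 693 at E11.5. Of 10 endothelial and pericyte markers 4 were tested and 1 was higher, Plvap, which was tested only because of its E14.5 signal. Of 7 tested meningeal markers 3 were lower and 1 higher, the last being Pdgfra, which oligodendrocyte precursors share. Beside each of these marker counts stand the shares over all genes tested, 14.3% higher and 13.6% lower.

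**Figure D5:**
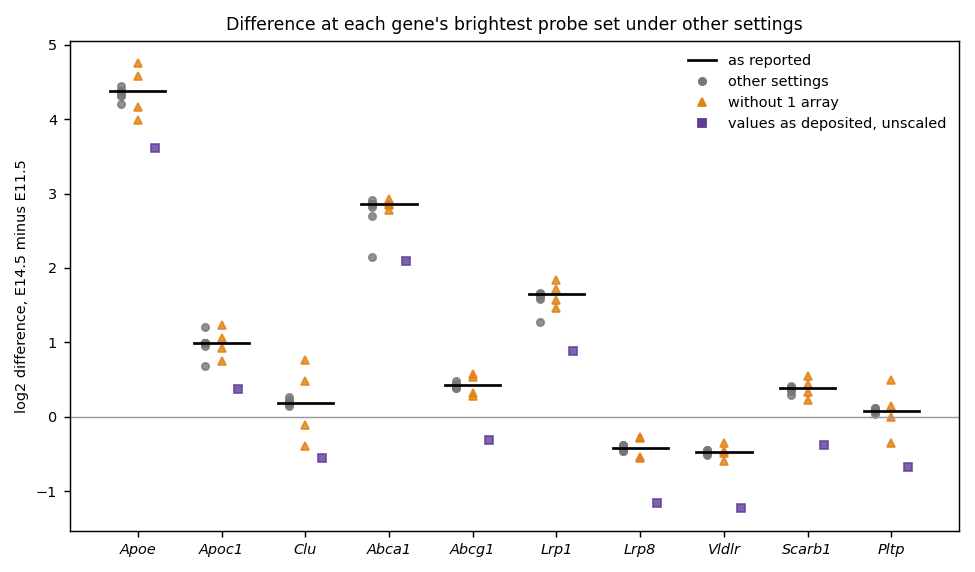
Log2 difference, E14.5 minus E11.5 (y axis), at the brightest probe set of each gene (x axis) as reported (black line), with each array left out (triangles), with unscaled values (squares) and under the other settings (circles). Apoe and Abca1 stay above 2 under every setting run, whereas the sign of Clu and Pltp depends on which array is left out.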

How the data were processed

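RNA of each of the 4 samples was hybridised to 1 Affymetrix mouse expression array. The deposited values are intensities, 1 signal per probe set and array, which the authors made with GCOS, Affymetrix's operating software, per the submitters' processing notes. The sources used here give neither a version nor a scaling target. The deposited detection calls were not used. The 10 genes and all lists of other genes were chosen with earlier results of these data known.

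From the deposited intensities, 64 control probe sets were left out of 45101, each array was multiplied so that its mean without the outer 2% at either end became 174 (factors 0.691 to 1.68), and log2(signal + 12.8) was taken. The pseudocount 12.8 is the 25th percentile of all values; fold changes on this scale understate those of dim genes. Probe sets with a mean signal over the 4 arrays under 27.3, the 40th percentile, were not tested. limma 3.58.1 in R 4.3.3 (lmFit, eBayes with a variance trend) compared E14.5 with E11.5 over 27022 probe sets with Benjamini-Hochberg adjustment; the code was tested on simulated data. A gene is represented by its brightest tested probe set. From each list the text names by rule the 3 called genes with the largest absolute log2 difference and up to 2 genes, the brightest, that were not called. Probe sets were named from the platform's annotation: 34945 name 1 gene, 932 several and 9160 none. Promoter windows are RefSeq's on GRCm38.p6. The number of arrays limits the precision. Alternatives were other pseudocounts, filters, scalings and variance trends, averaged probe sets, a replicate block and leaving out each array.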

Additional observations from a re-analysis of the deposited data

How the results depend on the processing

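The 2 arrays in each group limit every value here, and array brightness differed by up to 2.43 times before scaling. Of 369 refitted differences of the 10 genes, 323 kept their direction and their side of the threshold, 16 lost the call, 8 gained one and 22 turned their sign. Apoe and the 2 brighter probe sets of Abca1 kept their call under all alternatives run. The cause of the changes below was not tested, except that a filter changes how many probe sets are tested.

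Among the 10 genes the count of probe sets called lower, 1 as reported, was 0 with the smaller pseudocount, with no filter, with quantile normalization and without the variance trend, and 3 with values as deposited; leaving out 1 array gave 0 to 2. The count of genes called lower, 1 as reported, was 0 in those settings, with values as deposited and with probe sets averaged, and 0 to 1 with 1 array left out. With values as deposited, 3 probe sets and 2 genes of the 10 were called higher, against 6 and 4 as reported. Of the other transport genes, 4 were called higher with values as deposited and 12 without the variance trend, against 19 as reported; 3 were called lower with no filter and 3 without the trend, against 5, and 3 to 4 with 1 array left out. Over all probe sets, 4016 were called without the variance trend and 6408 as reported.

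With values as deposited the sign turned for Clu (-0.56, -0.55, -0.48 and -0.24), Abcg1 (-0.32 and -0.087), Scarb1 (-0.37, -0.34 and -0.64) and Pltp (-0.67 and -0.54), where the median of all probe sets was itself -0.71. With 1 array left out, 3 probe sets of Clu ran from -0.39 to 0.77, from -0.24 to 0.63 and from -0.16 to 0.67. The dimmer probe set of Abcg1 ran from -0.068 to 0.96, the second of Vldlr from -0.76 to 0.32, the third of Scarb1 from -0.10 to 0.29, and those of Pltp from -0.35 to 0.50 and from -0.052 to 0.36.

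The labels number the arrays 1 and 2 in both groups. Same-numbered arrays did not deviate together (r = 0.0041 across probe sets). The labels do not say what such arrays share beyond the number, and 1 correlation over all probe sets cannot settle it. With the replicate block, 6 probe sets of the 10 genes were called higher and 1 lower, all 26 kept their call or lack of one, and 7173 probe sets were called in all.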
